A study of Mus musculus with 20 samples.

Results

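Small nucleolar RNAs (snoRNAs) and the genes that carry them were described in intervertebral disc of old mice. Members were the rows of the expression table whose symbol begins with Snora, Snord or Snhg and a digit, and Gas5: 157 of 51789 genes. By symbol, 41 were box H/ACA snoRNAs (Snora), 99 were box C/D snoRNAs (Snord) and 17 were host genes (Snhg and Gas5). The rule used names only, not measured values.

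Total RNA was depleted of ribosomal RNA and sequenced, with 50 ng of input and 14 PCR cycles. It came from 2 dissected compartments, the gel-like core (nucleus pulposus, NP) and its surrounding fibrous ring (annulus fibrosus, AF). All mice were BL6 and 24 months old. Intraperitoneal injections were given weekly from 18 months of age, over 6 months. Controls received DMSO alone (the vehicle), and treated mice received MDL-800 dissolved in an equal amount of DMSO. MDL-800 is a small molecule activator of SIRT6, a chromatin deacylase. Both compartments were taken under both treatments, which gives 4 groups of 5 libraries, named here by compartment, treatment and number. The dose and sex are not given in the sources used here, and nothing states that libraries of a group came from separate animals, so the p-values measure the spread between these libraries.

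SnoRNAs guide the chemical modification of other RNAs, mainly ribosomal RNA, in the nucleolus. Box C/D snoRNAs bind fibrillarin and direct 2'-O-methylation. Box H/ACA snoRNAs bind dyskerin and direct pseudouridylation. A few members of both classes, among them U3, U8 (Snord118), U17 (Snora73a and Snora73b) and U22 (Snord22), instead act in the cleavage of the ribosomal RNA precursor. Most mammalian snoRNAs are cut out of introns of host genes. Many hosts encode ribosomal or nucleolar proteins, while the Snhg genes and Gas5 make spliced RNAs of little or no coding use, several of which are degraded by nonsense-mediated decay.

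The sequences below, from the GENCODE M21 transcripts on GRCm38, are the snoRNAs that the results turn on. Capitals mark the C box (TGATGA) and the last D box (CTGA) of the Snord sequences, or the ACA triplet near the end of the Snora sequences, all read on the sense strand. Snord15b (chr7:99479563-99479707, minus strand) and Snord15a (chr7:99482785-99482932, minus strand) both lie in the ribosomal protein gene Rps3. Snord22 (chr19:8725866-8725991, plus strand) lies in Snhg1. Snord17 (chr2:144265979-144266216, minus strand) lies in an intron of Snx5, which encodes a sorting nexin. Snora73a (chr4:132352775-132352979) and Snora73b (chr4:132352322-132352526), both on the minus strand, lie in Snhg3, and also within the span of Rcc1, which encodes a chromatin regulator. Snord34 (chr7:45126601-45126670, minus strand), in the ribosomal protein gene Rpl13a, is shown as an example of the short C/D snoRNAs that were listed at 0 throughout.
Snord15b: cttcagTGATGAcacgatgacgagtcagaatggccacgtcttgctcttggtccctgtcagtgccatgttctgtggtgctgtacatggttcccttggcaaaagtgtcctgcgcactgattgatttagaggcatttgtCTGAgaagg
Snord15a: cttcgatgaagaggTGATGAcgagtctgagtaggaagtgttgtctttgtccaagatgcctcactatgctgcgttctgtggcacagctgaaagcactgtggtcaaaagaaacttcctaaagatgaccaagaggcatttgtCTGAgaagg
Snord22: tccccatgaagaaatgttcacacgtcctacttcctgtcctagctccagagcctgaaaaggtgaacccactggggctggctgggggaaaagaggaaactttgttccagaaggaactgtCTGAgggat
Snord17: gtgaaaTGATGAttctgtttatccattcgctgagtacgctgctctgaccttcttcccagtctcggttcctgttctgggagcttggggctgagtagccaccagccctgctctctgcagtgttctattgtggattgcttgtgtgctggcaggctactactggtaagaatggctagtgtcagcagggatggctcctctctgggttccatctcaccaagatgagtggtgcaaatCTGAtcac
Snora73a: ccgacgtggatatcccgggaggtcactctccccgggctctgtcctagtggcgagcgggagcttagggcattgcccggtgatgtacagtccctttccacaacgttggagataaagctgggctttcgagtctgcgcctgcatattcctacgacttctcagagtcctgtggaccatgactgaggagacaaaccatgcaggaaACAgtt
Snora73b: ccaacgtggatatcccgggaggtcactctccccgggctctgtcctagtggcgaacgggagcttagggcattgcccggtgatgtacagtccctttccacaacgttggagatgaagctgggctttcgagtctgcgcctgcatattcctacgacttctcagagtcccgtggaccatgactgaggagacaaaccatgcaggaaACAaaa
Snord34: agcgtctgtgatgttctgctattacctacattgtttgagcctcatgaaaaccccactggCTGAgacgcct

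Snora73a and Snora73b were 96.6% identical over 205 aligned positions, so how the table divided fragments between them is uncertain. Snord15a and Snord15b were 65.6% identical over 154 aligned positions. The whole Snord15b sequence also lies within an annotated Rps3 transcript, and the whole of Snord22 within an Snhg1 transcript, so fragments of those host RNAs and of the snoRNAs cannot be told apart there. The letters TGATGA were found in 75 of 99 C/D members (75.8%) and in 0 of 41 H/ACA members, against 26.5% of all 1558 snoRNA genes of the table. An ACA triplet 3 nt from the end was found in 34 of 41 H/ACA members (82.9%) and in 0 of 99 C/D members, against 19.3% of all snoRNA genes. Snord22 and Snord34 lack the exact letters TGATGA, a statement about these letters only.

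Few short snoRNAs were listed above 0. Of the 140 snoRNA members, 104 were listed at 0 in all 20 libraries: 92 of 99 C/D members and 12 of 41 H/ACA members. C/D members were 64 to 238 nt long, with a median of 84 nt, and none of the 87 C/D members of 100 nt or less was above 0 in any library. Among the 12 longer C/D members, 7 were above 0. H/ACA members were 121 to 205 nt long, and 29 of 41 were above 0 in at least 1 library. Within the H/ACA members length did not set the 2 sets apart: the median was 133 nt for those above 0 and 132 nt for those at 0, and 76.9% were above 0 from 121 to 130 nt against 61.9% from 131 to 140 nt. Across the table, 0 of 463 snoRNA genes of up to 100 nt were above 0, against 152 of 1094 from 101 to 400 nt. That share was 2.13% from 101 to 110 nt, 9.22% from 121 to 130 nt, 14.1% from 131 to 140 nt, 26.2% from 141 to 150 nt and 59.5% from 201 to 400 nt.

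**Figure D1:**
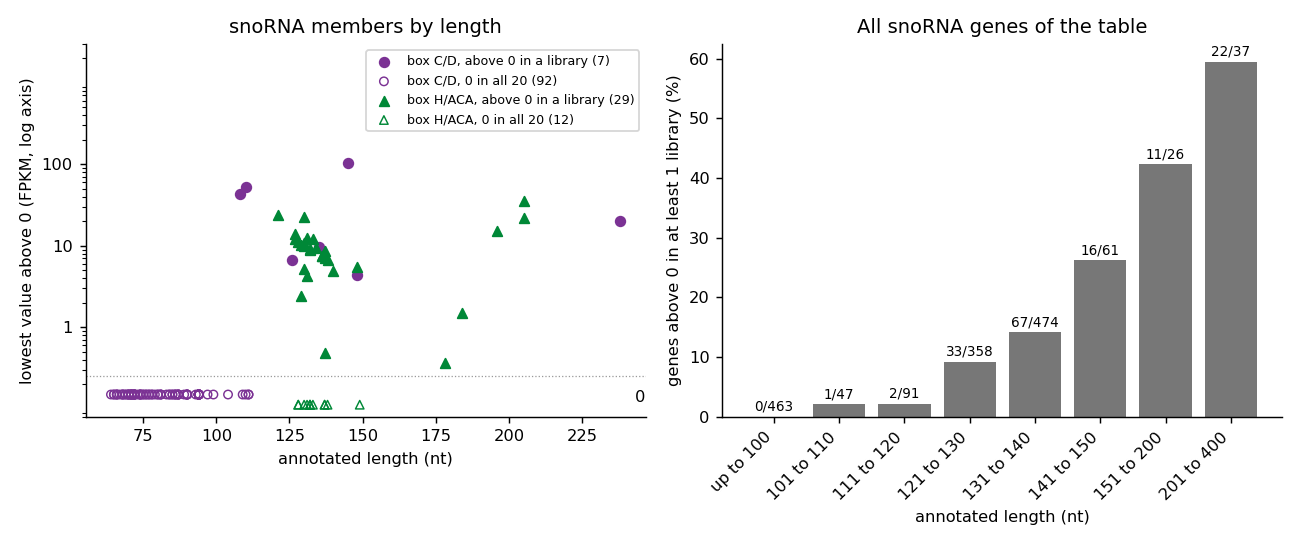
Left, annotated length (nt) of the 140 snoRNA members against the lowest value above 0 (FPKM, log axis), with the members at 0 in all 20 libraries as open symbols under the dotted line; right, the share of all snoRNA genes of the table above 0 in at least 1 library, by length, with counts over the bars. The 87 C/D members of 100 nt or less all lie at 0, and the share above 0 is 59.5% in the longest class.

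The size of the values also depended on length. The median of the lowest value above 0 was 31.5 FPKM for snoRNA genes of 111 to 120 nt, 8.86 FPKM at 131 to 140 nt and 2.79 FPKM at 151 to 200 nt. In single-exon genes of 300 to 900 nt, low values fell on whole multiples of a single step once each gene's length was shortened by 170 to 190 nt. Between 80.3% and 84.8% of those values lay within 0.15 of a whole multiple, and the step size corresponds to 12600000 to 21800000 fragments per library. Offset and step were estimated from these same values, as the depth is not given, so the share is no separate check of them. Most snoRNAs are shorter than that offset. Levels of snoRNAs of different length are therefore not comparable here, and a 0 is not evidence that a snoRNA was absent. Whether fragment length, library preparation or the assignment of fragments set the pattern was not tested.

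A member that shares exon sequence with a longer gene was above 0 in 21 of 26 cases among snoRNA members over 100 nt. Without such overlap it was 15 of 27. None of the 38 members of 100 nt or less that overlap an exon was above 0. Snord34 was at 0 in every library while Rpl13a, which holds it, stood at 1114 ± 179 scaled FPKM (SD, n = 5) in NP vehicle and 1168 ± 271 in AF vehicle. Scaled FPKM is the deposited value divided by a library factor (0.933 to 1.06). Of the 17 host genes, 11 hold a total of 36 snoRNA members by position, and 8 of those 36 were above 0. Gas5 holds Snord47, Snord78 and Snord80 (listed under 2 identifiers), all at 0, and none of the 17 Snord116 copies in Snhg14 was above 0.

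Only 31 members reached 1 FPKM in at least 5 libraries and were tested: 12 H/ACA, 4 C/D and 15 host genes. Members that passed mainly through 1 group or 1 treatment are included, so medians and counts over the tested members describe those members and not their class. The 2 untested host rows were Snhg7os, an antisense transcript with a mean of 0.326 scaled FPKM over all libraries, and Snhg7. The identifier of the Snhg7 row is annotated in M21 as a snoRNA (Snora43) of 139 nt, so its values do not measure a spliced host RNA. The Snhg4 identifier has no M21 entry and gets no position.

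NP markers were highest in NP and AF markers in AF, with some of each in the other compartment. The summed level of 11 NP markers ranged from 25920 to 33040 scaled FPKM in NP libraries and from 2515 to 15170 in AF libraries. Summed AF markers (10 genes) ranged from 799 to 1599 in NP and from 3398 to 11050 in AF. Every list for neighbouring cells had a higher median in AF vehicle than in NP vehicle: skeletal muscle 2674 against 93.2, red blood cells 1277 against 86.6, neutrophils 10680 against 551, macrophages 1800 against 96.3, bone 1037 against 60.2, endothelium 62.5 against 5.31 and B and plasma cells 166 against 13.8. Col1a1 is in both the bone list and the AF marker list, so the bone sum is not separate from the AF markers. The part of these cells in the tissue differences of snoRNAs and hosts was not tested. In whole tissue, fewer cells of a type and less RNA per cell cannot be told apart.

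Of the snoRNAs, 6 were above 0 in all 20 libraries: the C/D members Snord15b, Snord22 and Snord17 and the H/ACA members Snora74a, Snora73b and Snora73a. Snord15b alone made up 61.6% of the mean C/D sum, and with Snord22 and Snord17 94.4%. Snora74a, Snora73b and Snora73a made up 76.8% of the H/ACA sum. These are shares of summed FPKM over snoRNAs of different length, and they do not rank abundance. At 205 nt, the 10th percentile of values above 0 in other single-exon genes was 1.23 FPKM, and Snora73a ranged from 17.9 to 83.6 times that value. Snora23 and Snora81, in contrast, reached at most 6.01 and 5.57 times the same measure at their own lengths, so their values may rest on few fragments. The measure itself came from only 4 and 20 values there, against 63 at 205 nt. Snord22, though above 0 in every library, ranged from 0.454 to 20.15 times the measure at its length (638 values). Its median was 3.69 times, so many of its values may also rest on few fragments.

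Snord15b, a guide for 28S ribosomal RNA, stood at 285, 292, 405, 304 and 135 scaled FPKM in libraries 1, 2, 3, 5 and 6 of NP vehicle. In NP MDL-800 libraries 15, 18, 19, 20 and 22 it was 320, 474, 138, 226 and 151. The NP groups overlap across nearly their whole range. In AF vehicle libraries 8, 9, 10, 12 and 13 Snord15b was 149, 207, 182, 529 and 195, and in AF MDL-800 libraries 25, 27, 28, 29 and 30 it was 101, 147, 103, 109 and 116. All 5 treated AF libraries lay below all 5 AF vehicle libraries, by a margin of 147.5 to 149.

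Snora74a, an H/ACA snoRNA of the U19 family, stood at 116, 140, 143, 121 and 64.8 scaled FPKM in the NP vehicle libraries. The treated NP libraries stood at 74.1, 114, 51.9, 55.7 and 31.7. Vehicle libraries of AF gave 51.1, 98.6, 19.6, 389 and 100, and treated AF libraries 35.4, 23.8, 31.3, 28.7 and 14.5. AF vehicle library 12 stood far above the others and library 10 fell inside the treated range. Snord17 stood at 41.5, 73.9, 97.3, 54.7 and 23.9 in vehicle NP and at 34.0, 51.7, 23.5, 22.3 and 21.1 in treated NP. Its AF values were 32.3, 69.5, 52.2, 206 and 163 under vehicle, against 22.1, 27.7, 29.9, 30.7 and 39.6 under treatment. The treated libraries of both tissues sit at the low end of the vehicle range, with overlap in each.

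Snora73b, a U17 snoRNA, averaged 97.1 ± 39.9 scaled FPKM (SD, n = 5) under vehicle and 59.7 ± 24.8 under treatment in NP, and 104 ± 50.6 against 48.3 ± 4.96 in AF. Its near copy Snora73a had means of 48.8 ± 16.2, 30.7 ± 9.42, 58.4 ± 31.9 and 25.9 ± 5.50 in the same order. Snord22 was more scattered, at 73.2 ± 31.6, 36.1 ± 17.5, 102 ± 111 and 50.3 ± 34.4. Its lowest value, 6.49, and its highest, 287, were both in AF vehicle libraries (10 and 12).

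Some libraries were the highest or lowest of their group for most of the 6 snoRNAs. AF vehicle library 12 was the highest of its group for 6 of 6, NP vehicle library 3 for 5 and NP MDL-800 library 18 for 5, while NP vehicle library 6 was the lowest for 5. Others were mixed: NP MDL-800 library 18 was the lowest for Snord22, and in AF MDL-800 library 25 was the lowest for 4 and the highest for 1, and library 30 the highest for 3 and the lowest for 1. AF vehicle library 12 also had the lowest slope of expression on GC content in its group (-0.27 log2 units per 10 percentage points, against -0.00015 to 0.093 in the other 4). NP vehicle library 3, at -0.013, was within the range of its group.

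**Figure D2:**
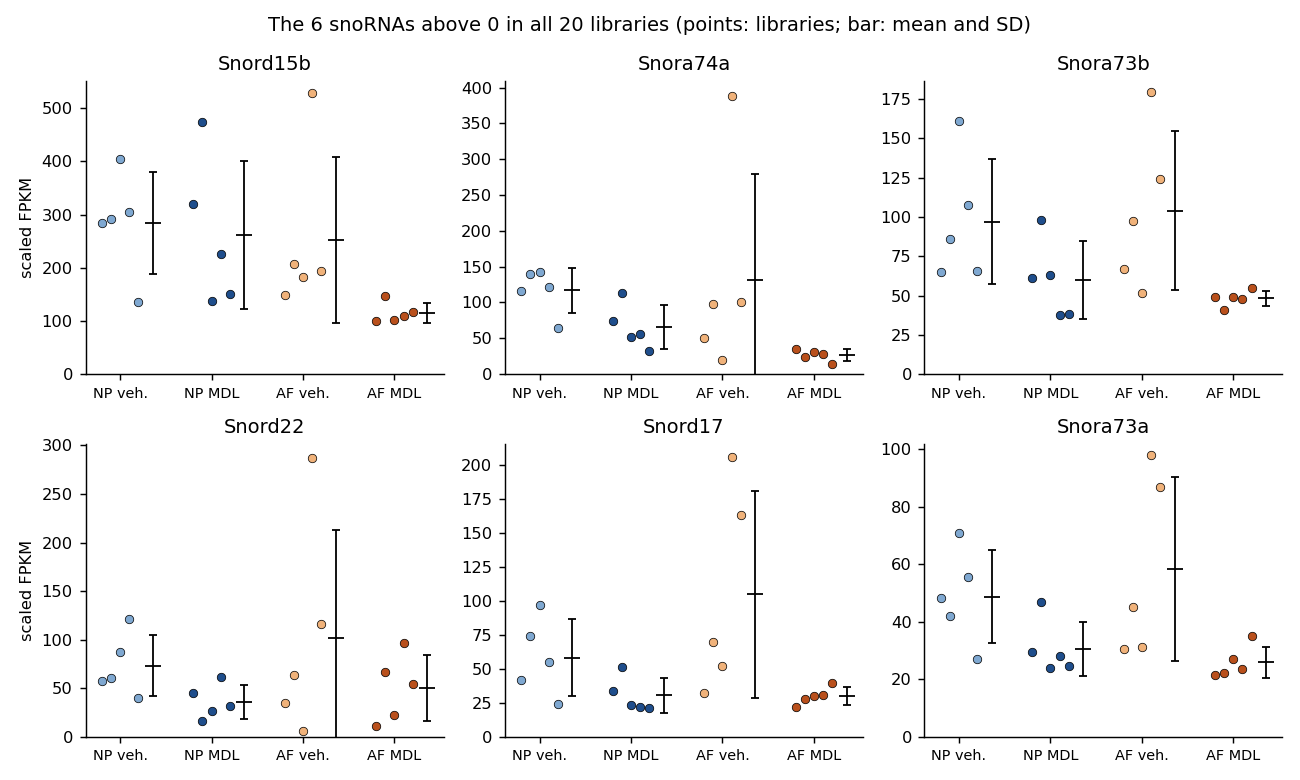
Scaled FPKM of the 6 snoRNAs above 0 in all 20 libraries, 1 panel each, with a point per library and the mean and SD of each group of 5 beside it. The 5 AF MDL-800 points of Snord15b, at 101 to 147, all lie below the AF vehicle points, and AF vehicle library 12 is the highest of its group in every panel.

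Each of the other 10 tested snoRNAs was at 0 in at least 2 libraries. Snord15a was above 0 in 18 libraries, with means of 18.0 ± 14.7, 11.0 ± 6.62, 22.1 ± 14.7 and 7.31 ± 3.49 scaled FPKM (SD, n = 5) for the vehicle and treated NP groups and then the vehicle and treated AF groups. Snora81, in an exon-sharing position of the translation factor gene Eif4a2, was above 0 in 12 libraries. It was above 0 in 4 AF vehicle libraries (2.21 to 4.67) and in 1 AF MDL-800 library (0.893). Snora23, in the importin gene Ipo7, was listed at 0 in all 5 AF MDL-800 libraries and reached 11.1 in AF vehicle library 8. Snora44, in Snhg12, was above 0 in 10 libraries, with a highest value of 66.6 in AF vehicle library 8. Snora78, in Snhg9, was above 0 in 7. Of the untested C/D members, Snord8 and Snord43 were each above 0 in a single library, and U8 (Snord118) in 3.

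The first comparison asked what MDL-800 changed in NP. Of the 31 tested members 1 was called (limma adjusted p under 0.05 over 16383 genes), against 0.25% of all genes (0.232% higher, 0.0183% lower): the host gene Snhg8. Snhg8 (chr3:123507552-123508404, minus strand) is the host of Snora24, which was listed at 0 in all libraries. It was 18.0, 28.0, 27.9, 38.6 and 37.6 scaled FPKM in the 5 vehicle libraries of NP, against 71.8, 75.1, 85.8, 90.9 and 86.2 in the 5 treated ones. The groups do not overlap, as for 4.5% of all genes tested (1% in the lower direction). The log2 difference was 1.46 (SE 0.18, limma adjusted p = 0.0166). The slope of expression on GC content also separated the NP groups (-0.29 to 0.024 in vehicle, 0.054 to 0.13 in MDL-800), and with the GC trend removed the difference was 1.54 (adjusted p = 0.0252). Over all alternatives the adjusted p ranged from 0.0101 to 0.12. The call was lost with no filter on low values (adjusted p = 0.0824), with all 4 groups in the fit (0.12), and without NP vehicle library 2 (0.0620) or 3 (0.0611) or NP MDL-800 library 20 (0.0698) or 22 (0.0846), while the difference stayed between 1.30 and 1.56 with any 1 library left out. In AF, Snhg8 was 23.7, 26.1, 16.7, 11.9 and 9.87 in vehicle and 39.4, 8.28, 17.0, 35.2 and 45.7 with MDL-800, a log2 difference of 0.55 (SE 0.45, limma adjusted p = 1). The difference between the tissues' responses was 0.91 (SE 0.51, adjusted p = 1).

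None of the 16 tested snoRNAs was called in NP by limma, where the smallest adjusted p was 0.230. At an unadjusted p under 0.05, 10 of 31 members passed, 6 lower and 4 higher, against 14.1% of all genes in either direction and 4.99% lower. The lower members were Snora74a (log2 difference -0.90, SE 0.32), Snord22 (-1.03, SE 0.37), Snora73a (-0.63, SE 0.25), Snord17 (-0.85, SE 0.36), Snora73b (-0.70, SE 0.31) and the host Snhg14 (-0.35, SE 0.14). Their adjusted p ranged from 0.230 to 0.344. The 4 higher members were the hosts Snhg8, Snhg9 and Snhg12 and the H/ACA member Snora64 (2.49, SE 0.94, limma adjusted p = 0.261). Snora64 was listed at 0 in all NP vehicle libraries and averaged 12.8 ± 18.1 scaled FPKM (SD) in NP MDL-800. Its difference could not be below 0, and its size depends on the added 1. With all 4 groups in the fit 5 of 31 members passed the unadjusted threshold, against 11% of all genes. Only 1 of them was lower, against 3.56% of all genes, so that count depended on which groups shared the estimate of spread. Leaving out 1 library gave 6 to 10 members, against 11% to 16.4% of all genes. Of these, 2 to 6 were lower, against 3.6% to 6.2% of all genes. The lower members were 2 without NP MDL-800 library 20 or 22, and 3 without NP MDL-800 library 19 or NP vehicle library 3 or 5. The median log2 difference was -0.66 over the 12 tested H/ACA members, -0.65 over the 4 C/D members and -0.06 over the 15 hosts, against -0.03 over all genes tested. With no filter on low values the medians were 0 for H/ACA and -0.191 for C/D members.

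Snhg9, a short host gene (183 nt of exon) that holds Snora78, was 0, 0, 0, 1.97 and 0 scaled FPKM in vehicle NP, against 9.58, 6.80, 0, 7.09 and 4.07 in treated NP. The log2 difference was 2.03 (SE 0.60), with an adjusted p of 0.157. It was listed at 0 in all 5 AF vehicle libraries and was 1.85, 0, 1.75, 1.94 and 4.68 in AF MDL-800 (limma unadjusted p = 0.00268, adjusted p = 1). In both tissues 4 of 5 treated libraries were above 0, against 1 of 5 and 0 of 5 with vehicle. Those treated libraries are also what brought Snhg9 over the filter of 1 FPKM in 5 libraries. Neither this count nor its p-values are therefore free of that choice. At this length its values carry the same dependence on length as those of the snoRNAs.

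In AF, MDL-800 gave no called member and no called gene at all in limma (0%, smallest adjusted p of the members 1). At an unadjusted p under 0.05, 9 of 31 members passed against 1.65% of all genes, and 8 of the 9 were lower, against 0.726% of all genes. These 8 were the H/ACA members Snora81, Snora73b, Snora73a, Snora74a and Snora23 and the C/D members Snord15b, Snord17 and Snord15a. The log2 difference was -0.98 for Snord15b (SE 0.30), -1.47 for Snord17 (SE 0.45), -0.96 for Snora73b (SE 0.29), -0.997 for Snora73a (SE 0.33) and -1.66 for Snora74a (SE 0.64). Snord15b was the only member whose AF groups did not overlap, as for 0.226% of all genes tested, or 0.0977% in the lower direction. Snord22, the other snoRNA above 0 in every library, had a difference of -0.49 (SE 0.91).

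Without AF vehicle library 12, 8 members were again lower at an unadjusted p under 0.05, against 0.568% of all genes. The difference became -0.67 for Snord15b, -1.14 for Snord17, -0.74 for Snora73b, -0.77 for Snora73a and -1.11 for Snora74a, and that of Snord22 turned to 0.09. Leaving out any other single library gave between 6 and 8 lower members, against 0.629% to 1.25% of all genes. All small RNA genes together made up 8.52% to 13.9% of the FPKM sum in AF MDL-800 libraries and 10.1% to 31.1% in AF vehicle libraries, with medians of 12.3% and 14.4%. AF vehicle library 12, the highest for the snoRNAs, had 12.2%. The summed bone markers, which include the AF marker Col1a1, had a median of 2910 in AF MDL-800 and 1037 in AF vehicle. The part of either in the snoRNA values was not tested. The median log2 difference in AF was -1.28 over the tested H/ACA members, -1.14 over the C/D members and 0.13 over the hosts, against 0.01 over all genes tested. Of the 12 H/ACA members, 3 (Snora23, Snora57 and Snora61) were listed at 0 in all AF MDL-800 libraries. Their differences could not be above 0, and their size depends on the added 1. With no filter on low values the H/ACA median was -0.0367 and the C/D median -1.13.

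**Figure D3:**
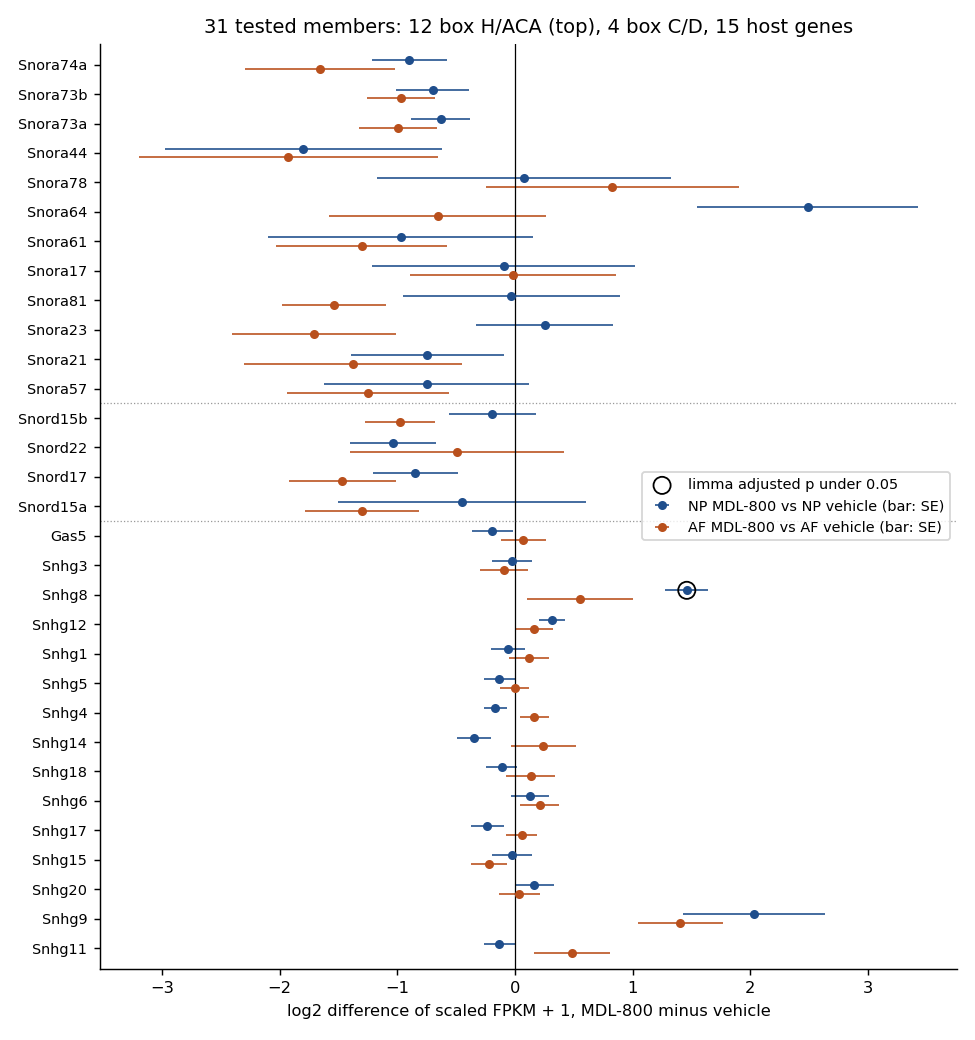
Log2 difference of scaled FPKM + 1, MDL-800 minus vehicle, for the 31 tested members in NP and AF, with bars of 1 SE and a ring where the limma adjusted p is under 0.05. Only Snhg8 in NP (1.46) is ringed. In AF 15 of the 16 snoRNAs lie left of 0, and the median over all genes tested was 0.01. Snord22 (-0.49), Snora64 (-0.66) and Snora17 (-0.02) lie within 1 SE of 0 there. Among the 15, Snora23, Snora57 and Snora61 were listed at 0 in all AF MDL-800 libraries and could not lie right of 0. Snora73a and Snora73b are near copies. Points of members listed at 0 in a whole group also depend in size on the added 1.

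Neither tissue's response was shown to differ from the other's. For the difference of the treatment effects, 0 of 31 members were called by limma (0% of all genes, smallest adjusted p 1.00), and 2 of 31 passed an unadjusted p of 0.05, against 3.73% of all genes. Averaged over both tissues, a contrast added after the data were seen, no member was called by limma (0.0244% of all genes, 0.0122% in each direction). There 8 of 31 passed an unadjusted p of 0.05, against 9.12% of all genes (2.98% lower): Snhg9, Snhg8 and Snhg12 higher and Snord17, Snora73b, Snora73a, Snora74a and Snord15b lower. Snhg9 was among the tested genes through its treated libraries.

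Each class was also summed per library. The summed H/ACA level was 339 ± 82.9 (SD, n = 5) scaled FPKM in vehicle NP, against 227 ± 59.6 in treated NP. In AF it was 358 ± 223 with vehicle, or 264 without library 12, and 135 ± 18.2 with MDL-800. Summed C/D members came to 434 ± 151 (vehicle) and 350 ± 150 (treated) in NP. In AF they came to 495 ± 356 (vehicle, or 344 without library 12) and 203 ± 51.2 (treated). Treated and vehicle libraries overlap in both sums and both tissues. Summed hosts were 553 ± 93.9, 560 ± 42.3, 358 ± 58.5 and 385 ± 39.1 in the same order, with NP means above AF means and treated means within 1 SD of the vehicle means. These sums are dominated by a few members, add values that depend on length, and carry no test.

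**Figure D4:**
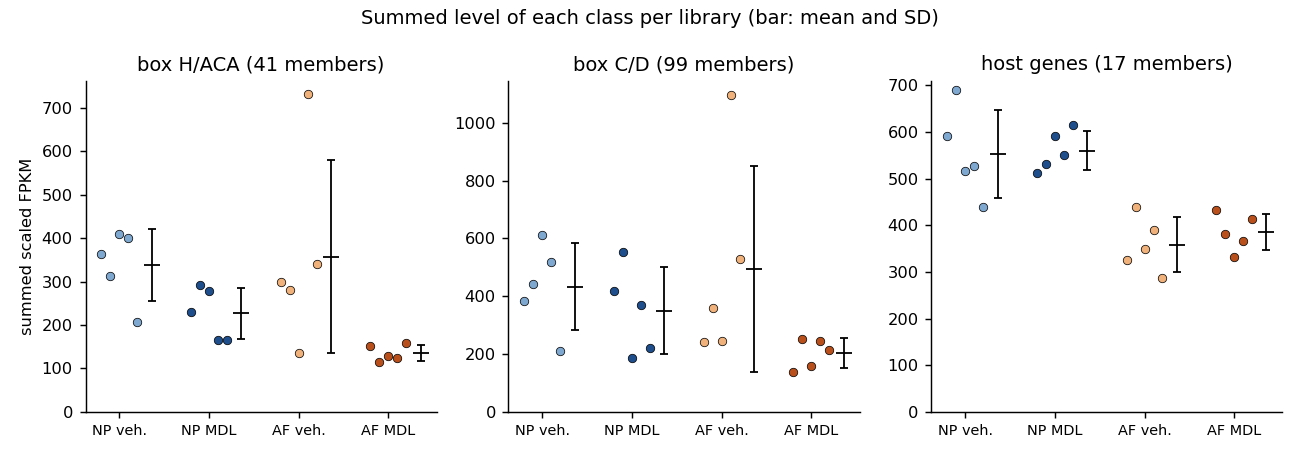
Summed scaled FPKM of the 41 H/ACA, 99 C/D and 17 host members, with a point per library and the mean and SD of each group of 5. The host sums of all AF MDL-800 libraries (333 to 433) lie below those of all NP MDL-800 libraries (512 to 614).

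Differences of the snoRNAs were also set beside those of the genes that hold them. For Snord15b the treatment difference was -0.98 in AF and -0.19 in NP, while its host Rps3 differed by 0.04 (SE 0.15) and -0.27 (SE 0.15). Snhg3, which holds both U17 copies, differed by -0.10 (SE 0.21) in AF and -0.03 (SE 0.17) in NP, and Rcc1 by 0.12 (SE 0.24) and 0.01 (SE 0.14). Snx5, the host of Snord17, differed by -0.15 (SE 0.11) in AF and -0.23 (SE 0.11) in NP. Snhg1, a host of many C/D snoRNAs, differed by 0.12 (SE 0.17) in AF and -0.06 (SE 0.14) in NP, beside -0.49 and -1.03 for Snord22. In NP the hosts Snhg9 and Eif4a2 had larger differences than their snoRNAs, whose SEs were wide. Snora78 differed by 0.08 (SE 1.25) in NP, beside 2.03 (SE 0.60) for its host Snhg9. In AF Snora78 differed by 0.83 (SE 1.08), beside 1.4 (SE 0.36). Snora81 differed by -0.03 (SE 0.92) in NP, beside -0.40 (SE 0.24) for Eif4a2. In AF Snora81 had the larger difference, -1.54 (SE 0.44) beside 0.09 (SE 0.20). The difference between a snoRNA and its host was not tested. Of 83 tested genes that hold a snoRNA member by position, 2 were higher with MDL-800 in NP by limma and none lower. Over all genes 0.232% were higher and 0.0183% lower. Of these 2 genes, 1 was Snhg8, already counted among the members, and 1 a ribosomal protein gene. None of the 83 was called in AF, where no gene was called at all.

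The other comparison asked how NP differs from AF. In vehicle libraries 5 of 31 members were called, all host genes, against 55.7% of all genes (21.8% higher, 33.9% lower). Snhg18 was lower in NP. Gas5, Snhg12, Snhg20 and Snhg8 were higher. None of the 16 tested snoRNAs was called by limma (smallest adjusted p 0.134). At an unadjusted p under 0.05, 0 of the 16 passed, against 60.3% of all genes.

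Gas5 (chr1:161034422-161038539, plus strand), a growth-arrest RNA, was the most abundant host gene at 50.0% of the mean host sum. Vehicle NP libraries gave 409, 443, 294, 292 and 224 scaled FPKM, and treated ones 256, 243.1, 314, 287 and 321. Vehicle AF libraries gave 129, 219, 138, 169 and 110, and treated ones 198, 141, 138, 139 and 174. Every NP library was above every AF library, and 41% of all genes (25.9% lower in NP) separated the vehicle groups without overlap. The log2 difference of NP and AF was 1.11 (SE 0.23, limma adjusted p = 0.0017) with vehicle and 0.85 (SE 0.13, adjusted p = 0.000218) with MDL-800. Treatment differences were -0.19 (SE 0.18) in NP and 0.07 (SE 0.19) in AF.

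Snhg18 (chr15:32240565-32244662, minus strand) went the other way. It was 5.41, 5.47, 3.41, 4.03 and 4.43 in vehicle NP and 17.8, 8.48, 14.5, 12.8 and 13.7 in AF vehicle, with no overlap (log2 difference -1.36, SE 0.18, limma adjusted p = 0.00013). With MDL-800 the NP libraries were at 3.22 to 4.70 and the AF libraries at 10.7 to 21.3 (-1.61, SE 0.16, adjusted p = 1.41e-05). Snhg12, which holds Snora44, Snora61, Snora16a and Snord99, was 34.1 ± 3.59 (SD, n = 5) in NP vehicle and 24.1 ± 4.14 in AF vehicle (log2 difference 0.49, SE 0.13, adjusted p = 0.00746), without overlap. Snhg20 was 6.59 ± 1.30 against 4.16 ± 1.24 (0.58, SE 0.20, adjusted p = 0.0293) and Snhg8 30.0 ± 8.42 against 17.7 ± 7.11 (0.77, SE 0.28, adjusted p = 0.0374). Both of the last calls were lost with no filter on low values (0.0565 and 0.084), and Snhg8 remained called in 3 of 10 fits without 1 library. Snhg8 was also lost with all 4 groups in the fit (0.0722) and with the library number as a replicate block (0.0929), and Snhg20 without NP vehicle library 2, 3 or 5 (0.0648, 0.0676 and 0.0647).

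**Figure D5:**
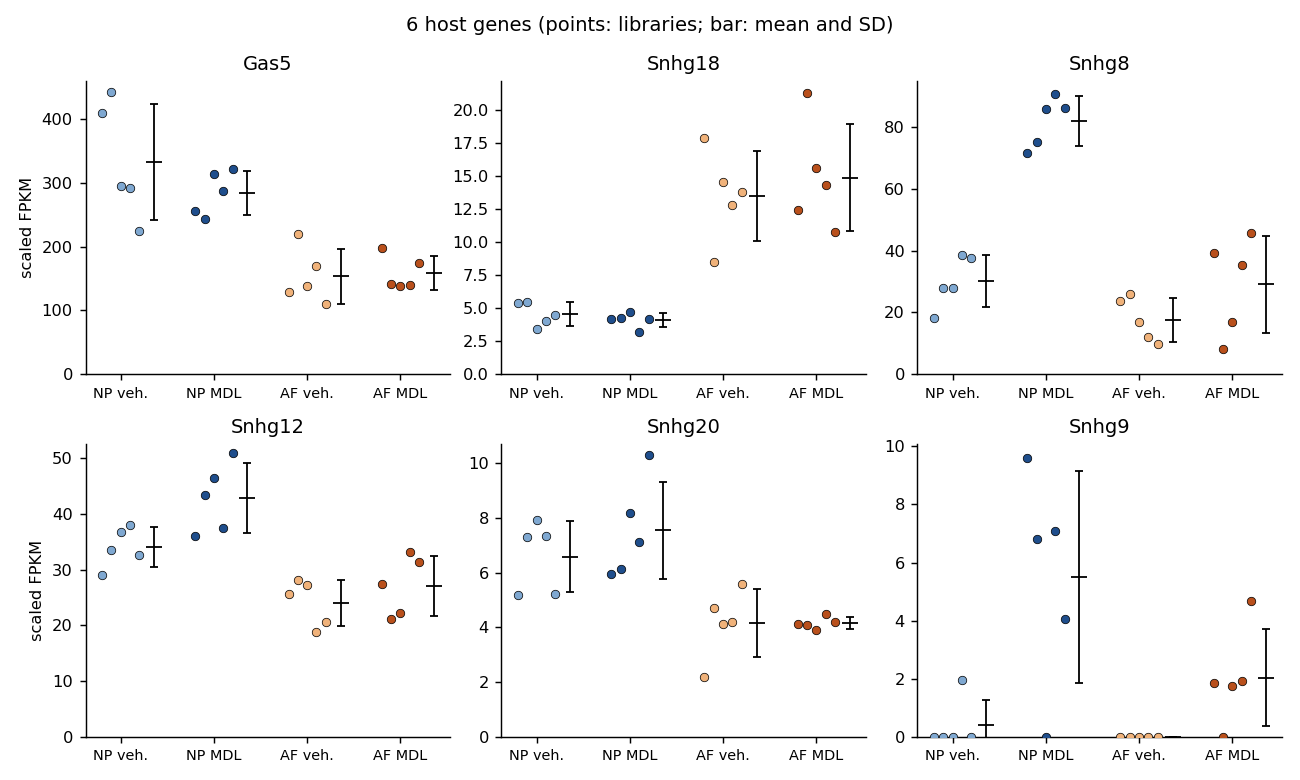
Scaled FPKM of 6 host genes, 1 panel each, with a point per library and the mean and SD of each group of 5. Gas5 lies higher and Snhg18 lower in every NP library than in every AF library, and Snhg8 is at 71.8 to 90.9 in NP MDL-800 against 18.0 to 38.6 in NP vehicle.

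In MDL-800 libraries 11 of 31 members were called between NP and AF, against 62.8% of all genes (25.6% higher, 37.2% lower). The higher members in NP were the hosts Gas5, Snhg20, Snhg12 and Snhg8 and the snoRNAs Snora23, Snora74a, Snord15b and Snora81. Snhg18, Snhg4 and Snhg11 were lower. The 7 host genes did not overlap between the groups, as for 49.1% of all genes (30.5% lower). Snora74a had a log2 difference of 1.20 (SE 0.32, limma adjusted p = 0.00784) and Snord15b 1.04 (SE 0.31, adjusted p = 0.0124), both with overlap between groups, and the first was lost with all 4 groups in the fit (0.0585). With the library number as a replicate block the Snord15b difference was 0.47 (adjusted p = 0.204). Snora23, listed at 0 in all AF MDL-800 libraries, had an adjusted p of 0.00442 and gets no fold. Snhg4 was 8.86 ± 1.26 against 11.4 ± 0.838 (-0.34, SE 0.11, adjusted p = 0.0167), a call lost with quantile normalization (-0.06, adjusted p = 0.618) and with the replicate block (-0.41, adjusted p = 0.0664). Snora81 kept its call in 3 of 10 fits without 1 library. These calls share the treated libraries with the treatment comparisons, and the change of the tissue difference with treatment was not called for any member.

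Other abundant hosts were alike in level between groups or scattered within them. Snhg3 had means of 51.5 ± 11.0, 50.2 ± 9.47, 57.3 ± 16.5 and 53.0 ± 11.9 scaled FPKM (SD, n = 5) for vehicle and treated NP and vehicle and treated AF, and its NP to AF difference with vehicle was -0.14 (SE 0.21, limma adjusted p = 0.595). Snhg1 had means of 23.9 ± 4.66, 22.8 ± 3.60, 24.9 ± 3.19 and 27.5 ± 6.56. Snhg5 had means of 23.3 ± 4.67, 20.96 ± 2.07, 17.8 ± 2.68 and 17.7 ± 1.92, and its NP to AF difference of 0.36 (SE 0.15) with vehicle had an adjusted p of 0.0568.

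RNA levels of the genes for snoRNA-binding proteins differed between tissues, and none of these genes was called with treatment. Of the 4 H/ACA core protein genes, 3 were lower in NP vehicle than in AF vehicle, against 33.9% of all genes. These were Gar1 (9.40 ± 1.83 against 15.6 ± 1.73, limma adjusted p = 0.00143), Nhp2 (11.2 ± 2.25 against 18.1 ± 3.33, adjusted p = 0.00498) and the dyskerin gene Dkc1 (21.2 ± 4.89 against 33.2 ± 7.19, adjusted p = 0.0166). Nop10 was not called. Of the 4 C/D core protein genes, 3 were lower in NP, against the same 33.9%. These were Nop56 (21.9 ± 2.86 against 39.4 ± 5.98, limma adjusted p = 0.000462), Fbl, the gene of the methyltransferase fibrillarin (10.3 ± 2.46 against 24.3 ± 7.79, adjusted p = 0.00197) and Nop58 (21.7 ± 1.60 against 27.0 ± 3.56, adjusted p = 0.0387). Snu13 was not called. The same 6 genes were lower in NP with MDL-800, against 37.2% of all genes.

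Among 12 genes of snoRNP assembly 2 were higher and 3 lower in NP vehicle than in AF vehicle, among 10 of RNA polymerase I 1 and 4, among 10 of nonsense-mediated decay 1 and 3, and among 11 of the nuclear exosome 1 and 7. Smg1, a kinase of nonsense-mediated decay, was the higher member of its list (log2 difference 0.77, SE 0.13, limma adjusted p = 0.000587). The exosome subunit gene Exosc8 had a difference of -0.48 (SE 0.09, adjusted p = 0.00132). For all these lists the background is the same 55.7% of genes called. No gene of the 6 lists was called with MDL-800 in either tissue by limma: the smallest adjusted p was 0.0927 in NP (Rrn3, which recruits RNA polymerase I, unadjusted p = 0.00164) and 1 in AF.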

How the data were processed

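The authors deposited 1 table of FPKM values (fragments scaled to gene length and library size), rounded to 2 decimals, for 51789 genes and 20 libraries. Per the submitters' processing notes, STAR 2.7.11b and the build mm10 were used. The counting program, its annotation and the depth are not given in the sources used here. Since FPKM is a normalized unit, a count test was not applied. Values were divided by a median-ratio factor, computed over the 11308 genes that reached 1 FPKM in every library. The 16383 genes that reached 1 FPKM in 5 or more libraries were tested on log2(scaled FPKM + 1) with limma 3.58.1 in R 4.3.3 (eBayes with trend, two-sided, only the 2 groups compared in the fit, Benjamini-Hochberg over all tested genes). The log2 differences are on that scale and understate those of low genes. The treatment-by-tissue contrast used all 4 groups. The test was checked on simulated data.

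Lengths, positions and sequences came from GENCODE M21 on GRCm38, the same assembly as mm10, which holds 156 of the 157 members. Copies were sought with BLAST 2.17.0 and identities computed with Biopython 1.88. Members eligible for naming were, in each class, direction and comparison, up to 4 with the smallest p and a mean of at least 5 scaled FPKM in the higher group. Not every eligible member was described in every comparison. Snora21 (lower in NP than AF with vehicle, -1.29, SE 0.97) and Snhg6 (higher with MDL-800 in AF, 0.21, SE 0.16) were eligible and not described above. Neither was called there. Also named were the 5 with the highest mean scaled FPKM in each class, Gas5 and Snhg1. Others (Snora23, Snora81, Snhg9 and Snhg20 among them) are named where a count or a call includes them. Members and lists were chosen with earlier results of these data known. Alternatives were another pseudocount (0.1), no filter on low values, scaling to a common sum, quantile normalization, removal of the GC trend, all 4 groups in the fit, and leaving out each library.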

Additional observations from a re-analysis of the deposited data

Results flagged for a closer look

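Each library was set against the other 4 of its group for the 21 members above 0 in all 20 libraries and the 3 class sums, in 96 group-wise checks with Dixon's gap test, of which chance marks about 1 in 20. Snord15b in AF vehicle library 12 was 529 scaled FPKM, against 149 to 207 in the other 4. Snora74a in the same library was 389, against 19.6 to 100. Snora73a in NP MDL-800 library 18 was 47.0, against 23.9 to 29.6. Snhg17 in AF vehicle library 13 was 9.25, against 6.07 to 6.72.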

How the results depend on the processing

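Most snoRNA members are at 0, and the FPKM that one fragment gives is larger the shorter the gene. Class sums moved by less than 1 SD (log2) under sum scaling and with any 1 library left out. Of 12 comparisons of class sums 9 kept their sign in the mean log2 difference. For NP to AF with vehicle the H/ACA value was 0.09 and ranged from -0.21 to 0.40 with 1 library left out. The C/D value was -0.03, ranged from -0.22 to 0.32, and was 0.0583 under sum scaling. The host value in the NP treatment comparison was 0.03, ranged from -0.0482 to 0.12, and was -0.0493 under sum scaling. Without AF vehicle library 12 the ratio of mean NP to AF sums with vehicle went from 0.948 to 1.28 for H/ACA and from 0.876 to 1.26 for C/D. Counts of called members in 16383 genes moved as follows, and, beside the replicate block given after them, no other setting changed a count by over 1.5 times. The NP treatment count of 1 became 0 with no filter on low values and 0 with all 4 groups in the fit, and ranged from 0 to 2 with 1 library left out (0 without NP vehicle 2 or 3 or NP MDL-800 20 or 22, 2 without NP MDL-800 19). The NP to AF count of 5 with vehicle became 3 with no filter and 8 with quantile normalization, and ranged from 3 to 7 with 1 library left out (3 without NP vehicle 2 or 5). The count over both tissues ranged from 0 to 2 (1 without NP MDL-800 19, 2 without AF MDL-800 27). The cause was not tested.

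Library numbers in the column names recur between tissues, in 5 vehicle and 3 MDL-800 pairs. The deviations of same-numbered libraries correlated at -0.178 to 0.285 with vehicle and -0.176 to 0.171 with MDL-800, and the labels do not say what the number marks, so it was not used to pair libraries. With that number as a replicate block, added after the data were seen, the NP to AF count was 5 with vehicle (Snhg8 lost at 0.0929, Snhg5 gained), 7 with MDL-800 against 11 (Snord15b lost at 0.204, Snhg4 at 0.0664, and Snora23, Snora81 and Snhg11 too, with Snhg1 gained) and 0 for the treatment-by-tissue contrast. Under the block these log2 differences changed sign: Snora73a -0.11, Snora73b -0.0876 and Snord15a -0.15 for NP to AF with MDL-800, and Snora73b -0.0367, Snora78 1.96 and Snora17 0.41 for the treatment-by-tissue contrast.

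None of the other results that changed sign was called. Snora78 in the NP treatment comparison was -0.34 with the GC trend removed, and Snhg5 in the AF treatment comparison 0.0658 under sum scaling and 0.0108 with the GC trend removed. For NP to AF with vehicle, Snora73a was 0.0611 with the GC trend removed, Snora73b 0.0326 under sum scaling, 0.0103 with quantile normalization and 0.16 with the GC trend removed, and Snhg1 0.0134 under sum scaling and 0.11 with quantile normalization. For NP to AF with MDL-800, Snord15a was -0.41 with a pseudocount of 0.1, Snord17 0.13 with quantile normalization and 0.11 with the GC trend removed, and Snhg15 0.21 with quantile normalization.

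With 1 library left out, differences that changed sign ranged as follows. In the AF treatment comparison Snhg3 ranged from -0.21 to 0.048, Snhg5 from -0.0547 to 0.0607 and Snord22 from -1.23 to 0.0909. In the NP treatment comparison Snora78 ranged from -0.69 to 0.69 and Snord15a from -1.33 to 0.33. For NP to AF with vehicle, Snhg3 ranged from -0.24 to 0.00497, Snora44 from -0.17 to 1.35, Snora73a from -0.34 to 0.0746, Snora73b from -0.27 to 0.18, Snora74a from -0.0724 to 0.99, Snord15a from -1.17 to 0.17 and Snord22 from -0.45 to 0.87. For NP to AF with MDL-800, Snord15a ranged from -0.14 to 0.91, Snord17 from -0.24 to 0.0703 and Snord22 from -0.68 to 0.0643. For the treatment-by-tissue contrast Snora17 ranged from -0.79 to 0.62, Snord15a from -0.0328 to 1.62 and Snord22 from -1.12 to 0.19.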
